A study of Mus musculus with 119 samples.

Results

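Satellite cells of geriatric mice were compared with those of young mice within the gate of low surface CD34 (CD34Lo), using 4 libraries of bulk RNA-seq from each age. The comparison used the 8 CD34Lo libraries among the 16 of its experiment, which also holds 4 geriatric and 4 young libraries of the high gate (CD34Hi). The whole series lists 119 samples. The libraries were chosen by their labels alone, and genes of chromosomes X and Y were left out, so that 23306 of 24421 symbols of the count table remained. All cells came from resting, uninjured skeletal muscle of untreated wild-type mice, were not cultured, and were sorted as negative for CD45, Sca-1 and CD31 and stained for α7-integrin and CD34. The age groups are named only young and geriatric, with no number of months, and the labels do not say how many animals gave a library or whether libraries came from separate animals. P-values therefore measure the spread between these libraries, which may be partly technical.

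Satellite cells are the stem cells of skeletal muscle. They lie under the basal lamina of the fibre, rest for most of adult life, and divide and fuse to rebuild fibres after injury. CD34 is a cell surface sialomucin that resting satellite cells carry in differing amounts, and gates of low and high CD34 split the pool. Interferons are secreted signals that act through receptor-bound JAK kinases on STAT factors. STAT factors with IRF9 bind an element called the ISRE, STAT factors without it bind one called GAS, and the genes they switch on include antiviral proteins, GTPases that attack the vacuoles of intracellular pathogens, and the machinery of MHC class I. With age the satellite cell pool shrinks and loses part of its capacity for repair.

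The geriatric libraries correlated less with one another than the young ones did. Total counts ran from 9.05 M to 12.19 M in the geriatric and from 10.45 M to 16.11 M in the young CD34Lo libraries. Pairwise correlations of log2 CPM (counts per M of the scaled library total) were 0.954 to 0.969 among the young libraries and 0.828 to 0.886 among the geriatric ones. Geriatric replicate 3 stood nearer to the young libraries (0.913 to 0.932) than to the other geriatric ones (0.828 to 0.872). The 10 most abundant genes held 7.62% of its counts, just above the young range of 6.96% to 7.58%, against 11.47% to 15.73% in the other geriatric libraries. The X-linked RNA Xist, which is made in female cells, was at 0, 13.5, 377 and 56 CPM in geriatric replicates 1 to 4 and at most 2.47 CPM in every young library, so the geriatric libraries differed in Xist among themselves and from the young ones. Over all 4 geriatric libraries, age and this difference cannot be told apart. Values with replicates 1 and 2 alone (Xist below 50 CPM, with the same limit for CD34Hi libraries in the fit), or with replicates 3 and 4 alone, are given for some results only.

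The sorted identity was checked against marker lists. Of 14 satellite cell markers all 14 were measured, and their summed level was 3480 to 5910 CPM in geriatric and 3310 to 4300 CPM in young libraries. The muscle stem cell factor Pax7 read 60.9, 52.0, 34.1 and 13.8 CPM in geriatric replicates 1 to 4 and 15.4, 12.4, 31.9 and 17 CPM in young replicates 1 to 4, which overlapped. Ptprc, which encodes CD45, was at 0 in 3 geriatric libraries and at 0.124 CPM in the other. Its young values reached 0.0709 CPM at most, and Cd3e was at 0 in all 8 libraries. Single young libraries held markers of other cells. The myeloid gene Lyz2 was at 71.6 and 16.7 CPM in young replicates 1 and 2 and at 0 in the other young libraries, against at most 5.33 CPM in geriatric libraries. Ly6a, which encodes Sca-1, was at 63.2 and 18.1 CPM in young replicates 2 and 3 and at most at 5.48 CPM in the other CD34Lo libraries, and the endothelial Fabp4 was at 181 and 82.6 CPM in the same young replicates and at most at 6.95 CPM elsewhere. Their part in the results was not tested. The red blood cell markers were at 0 in all 8. In bulk libraries such as these, fewer cells of a type and less RNA per cell cannot be told apart.

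In all, 1424 of 11730 autosomal genes tested passed the threshold (12.1%), that is an adjusted p under 0.05 in edgeR's quasi-likelihood test. Of these, 929 were higher (7.92%) and 495 lower (4.22%) in geriatric cells, and the median log2 difference over all genes tested was 0.051. All 4 geriatric libraries lay above all 4 young ones for 1059 genes (9.03%) and below them for 1347 (11.5%). The number of calls depended on single libraries. It was 655 without geriatric replicate 1, 812 without replicate 2 and 2760 without replicate 3. It was 704, 813, 676 and 718 without young replicates 1, 2, 3 and 4. With only geriatric replicates 1 and 2 it was 4186, and with only replicates 3 and 4 it was 712.

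Many genes of the interferon response rose. Over 5 lists (signalling, nucleic acid sensors, antiviral effectors, interferon-inducible GTPases and MHC class I presentation), 41 of 108 genes tested were called higher in geriatric CD34Lo cells, that is 38%, against 7.92% of all autosomal genes. One gene, Pdia3, was called lower. The median log2 difference of the 108 genes was 1.88, beside 0.051 over all genes tested. Without geriatric replicate 1 the count was 20, and without young replicates 1, 2, 3 or 4 it was 22, 27, 21 or 23. Without geriatric replicates 2, 3 and 4 it was 30, 50 and 49. Replicates 1 and 2 alone gave 62 calls, and replicates 3 and 4 alone gave 13. The plot of 17 interferon-related genes by library shows the order of the geriatric libraries in each.

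**Figure D1:**
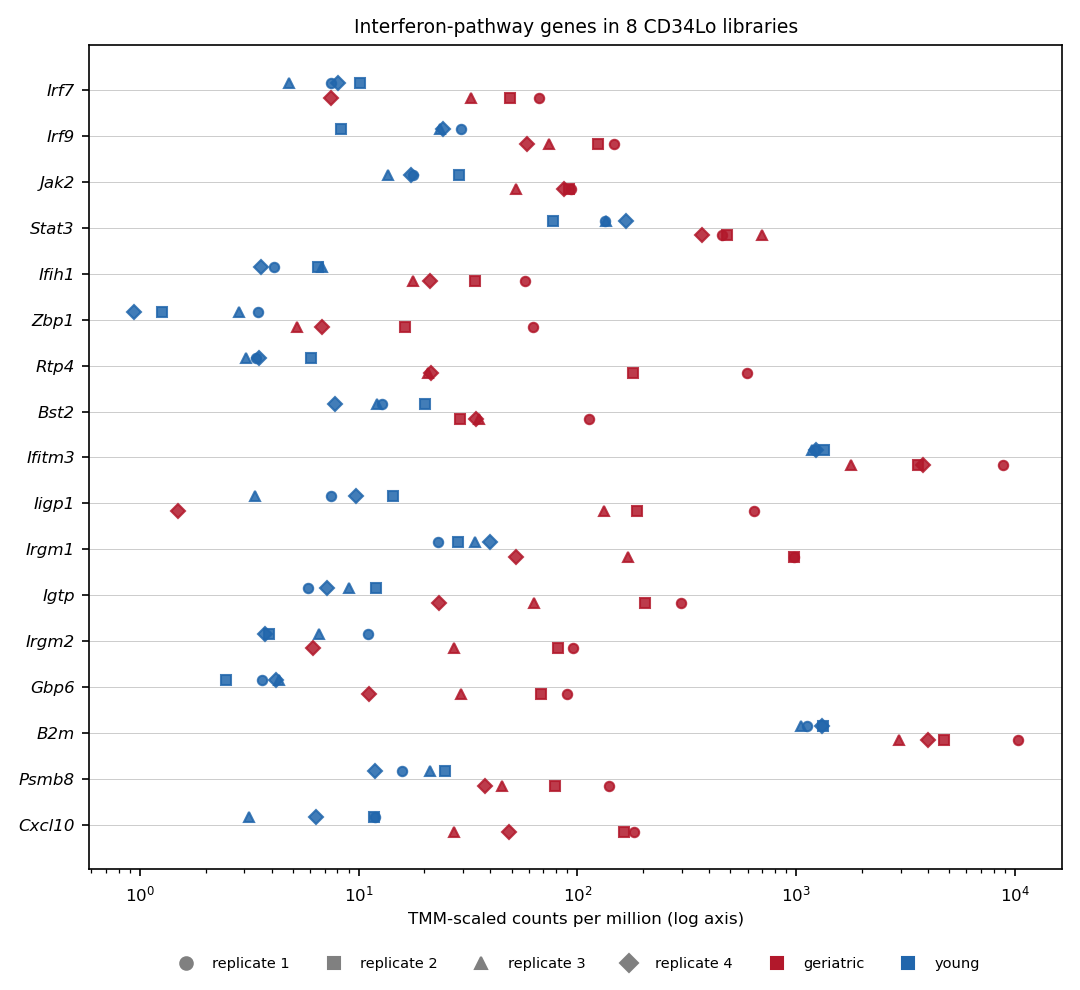
CPM of 17 interferon-related genes in each of the 8 CD34Lo libraries, on a log axis, with geriatric and young libraries in separate colours. The geriatric points are spread more widely than the young ones, and replicate 4 of Irf7 (7.44 CPM) and of Iigp1 (1.49 CPM) lies within or below the young range.

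Among receptors, kinases and transcription factors of the pathway, 8 of 23 genes tested were higher and none was lower. Stat2, a subunit of the ISRE-binding complex, was at 82.8, 42.1, 36.2 and 29.3 CPM in geriatric replicates 1 to 4 and at 7.66, 2.99, 5.32 and 4.60 CPM in young replicates 1 to 4. Every geriatric library stood clear of every young one, and the log2 difference was 3.21 ± 0.54 (SE, adjusted p = 0.0026). Its partner Irf9 was at 147, 124, 74.5 and 58.7 CPM against 29.5, 8.28, 23.6 and 24.3 CPM (log2 difference 2.24 ± 0.42, adjusted p = 0.00468). The groups did not overlap here either, and the call held in all 8 fits that left out 1 library.

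Stat3, the factor downstream of the interleukin 6 family, was at 459, 486, 698 and 373 CPM against 133, 77.3, 136 and 166 CPM. Unlike Stat2 and Irf9 it was highest in replicate 3, and its rise of 3.93-fold (adjusted p = 0.00213) was called in all 8 fits that left out 1 library. Jak2, a receptor-bound kinase, read 93.8, 91.3, 52.5 and 86.6 CPM against 17.7, 28.9, 13.6 and 17.4 CPM (4.17-fold, adjusted p = 0.006). Irf7, which amplifies type I interferon production, was at 66.5, 49.3, 32.6 and 7.44 CPM against 7.45, 10.2, 4.82 and 8.09 CPM. Replicate 4 was within the young range while the other 3 stood above it, and the call (log2 difference 2.35 ± 0.57, adjusted p = 0.0149) was lost without geriatric replicate 1 (0.0579) and in 1 other such fit. The receptor chain Ifnar2 rose 1.87-fold (adjusted p = 0.0198) and Irf8 by a log2 difference of 2.81 (adjusted p = 0.0319). The count of 8 fell to 4 without geriatric replicate 1 or young replicate 3 and to 5 without young replicate 1.

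In the list of nucleic acid sensors and related genes, 3 of 14 tested were higher and none lower. Ifih1 encodes MDA5, a sensor of long double-stranded RNA. It was at 57.5, 34.2, 17.7 and 21.2 CPM in geriatric and 4.11, 6.49, 6.78 and 3.58 CPM in young libraries, with no overlap (log2 difference 2.63 ± 0.67, adjusted p = 0.0185). Zbp1, a sensor of left-handed nucleic acid that can start necroptosis, was at 62.6, 16.4, 5.24 and 6.82 CPM against 3.48, 1.26, 2.85 and 0.936 CPM (10.6-fold, adjusted p = 0.0297). Most of that mean came from replicate 1, and without it the adjusted p was 0.155. Eif2ak2, the RNA-activated kinase PKR, rose 5.51-fold (adjusted p = 0.0209) and was no longer called without geriatric replicate 2 (0.0831). The calls of Ifih1, Zbp1 and Eif2ak2 were lost in 3, 5 and 5 of the 8 fits with 1 library left out. The count of 3 was 1, 2, 3 and 3 without geriatric replicates 1 to 4 and 0, 1, 1 and 0 without young replicates 1 to 4.

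The antiviral effectors held 17 calls among 39 genes tested, all higher. Rtp4, a receptor transporter induced by interferon, was at 598, 179, 20.8 and 21.5 CPM in geriatric and 3.40, 6.03, 3.04 and 3.49 CPM in young libraries. The lowest geriatric library was above the highest young one, and the log2 difference of 5.67 ± 1.16 (adjusted p = 0.00656) was the largest among called rises with a mean of at least 8 CPM and no overlap. Bst2, or tetherin, which holds budding virus at the cell surface, read 113, 29.0, 35.7 and 34.4 CPM against 12.8, 20.1, 12.1 and 7.83 CPM (4.01-fold, adjusted p = 0.00815). Ifitm3, which blocks viral fusion, was abundant in both ages, at 8832, 3599, 1784 and 3815 CPM against 1223, 1348, 1187 and 1234 CPM (3.61-fold, adjusted p = 0.00714). Its neighbour Ifitm2 rose 2.47-fold and Ifi27 2.51-fold, and calls of Rtp4, Bst2, Ifitm3, Ifitm2 and Ifi27 held in all 8 fits that left out 1 library. With replicates 3 and 4 alone, Ifitm2 was not called (adjusted p = 0.0971). Ifitm genes have near-identical copies, and how reads were split between them is not known here.

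Other members were high in 3 geriatric libraries and low in replicate 4. Oasl2, an oligoadenylate synthetase-like protein, was at 116, 31.1, 15.9 and 0.496 CPM against 0.851, 2.70, 1.58 and 1.28 CPM (log2 difference 4.65 ± 1.07, adjusted p = 0.0113). Mx2, a dynamin-like GTPase active against viruses, was at 20.5, 12, 5.31 and 0.248 CPM against 0, 0, 0.127 and 0.596 CPM (adjusted p = 0.0215). In both genes replicate 4 sat inside or below the young values. Ifit1, which binds foreign RNA caps, followed the same order at 58.2, 46.3, 17.2 and 0.124 CPM against 0, 4.77, 0.951 and 2.72 CPM and was not called (adjusted p = 0.0549). Isg15, a ubiquitin-like modifier, was at 142, 24.7, 13.5 and 9.68 CPM against 5.39, 10.7, 1.58 and 2.38 CPM, with an overlap of replicate 4 and young replicate 2 (adjusted p = 0.0299). The count of 17 went to 9 without geriatric replicate 1 and to 10, 11, 10 and 11 without young replicates 1 to 4, to 28 with replicates 1 and 2 alone, and to 5 with replicates 3 and 4 alone.

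The interferon-inducible GTPases had the largest share of calls among the lists tested, with 7 of 11 genes higher, none lower and a median log2 difference of 3.06. These are the immunity-related GTPases (IRG) and the guanylate-binding proteins (GBP), which assemble on pathogen vacuoles. Irgm1, a regulatory IRG, was at 979, 977, 169.7 and 52.6 CPM in geriatric and 23, 28.4, 34.2 and 40.01 CPM in young libraries. Replicates 1 and 2 were far above the rest, replicate 4 was just above the highest young library, and the log2 difference was 4.12 ± 0.87 (adjusted p = 0.00756). Igtp, also called Irgm3, read 298, 203, 63.0 and 23.2 CPM against 5.89, 12, 9.06 and 7.15 CPM (17.2-fold, adjusted p = 0.0095). Gbp6 read 89.8, 68.0, 29.4 and 11.2 CPM against 3.62, 2.47, 4.31 and 4.17 CPM (13.6-fold, adjusted p = 0.0113). In each of these genes replicates 1 and 2 were highest and replicate 4 lowest of the geriatric libraries, and none overlapped the young ones. With replicates 3 and 4 alone the adjusted p was 0.0255 for Irgm1, 0.128 for Igtp and 0.113 for Gbp6.

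Iigp1, an effector IRG, was at 639.6, 187, 132 and 1.49 CPM against 7.45, 14.4, 3.36 and 9.71 CPM. Replicate 4 was below every young library while the other 3 were far above the highest, with a fitted log2 difference of 4.78 ± 1.26 (adjusted p = 0.0212). Its call was lost in 4 of 8 fits with 1 library left out (0.0795 without geriatric replicate 1). Irgm2 read 96.0, 81.8, 27.2 and 6.20 CPM against 11.1, 3.91, 6.59 and 3.75 CPM and rose 8.33-fold (adjusted p = 0.0234). Irgm2 lost its call in 5 of the same 8 fits. The gene models of Igtp and Irgm2 overlap on mm10 (chr11:58199556-58207591 and chr11:58199618-58222782), and the library kit keeps no strand, so reads cannot be assigned to either with certainty. The list's summed level was 2569, 1815, 606 and 165.4 CPM in geriatric replicates 1 to 4 and 156.7, 138.5, 124.6 and 189.3 CPM in young replicates 1 to 4. The sum of replicate 4 thus lay within the young range. The count of 7 went to 3 and 4 without geriatric replicates 1 and 2 and to 4, 3 and 3 without young replicates 1, 3 and 4. It was 9 with replicates 1 and 2 alone and 1 with replicates 3 and 4 alone.

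Promoter sequence was read for the tested genes that have an entry in RefSeq's table of 250 bases before to 50 after the start (9190 of 11730). The ISRE was searched as GAAA, any NN, then GAAA, and GAS as TTCNNNGAA (N for any base), on both strands, and neighbouring ISRE matches may overlap. An ISRE match stood in 16 of 29 interferon-list genes called higher (55.2%) and in 18 of 56 of those not called higher (32.1%). It stood in 6.1% of all genes called higher, but in 26 of 659 of those outside the interferon lists (3.9%). The share was 3.7% in all tested genes and 3.46% in all 31396 autosomal promoters of that length. GAS matched in 34.5% of the 29 and in 8.3% of all promoters. A match is a description of these letters and not a bound site. The following windows of 90 bases, which end at the base before the start or, in B2m and Bst2, 61 bases before it, are shown because the 5 GTPases called higher with a promoter entry (Tgtp2, Irgm1, Igtp, Irgm2 and Gbp3) all held an ISRE match, with B2m and Bst2 added as steadily called genes of the other lists. Capitals mark the ISRE matches, which in Irgm1, Gbp3 and Bst2 are overlapping pairs, each read 5′ to 3′ on the gene's own strand.
Tgtp2 (GRCm38.p6, chr11:49064213-49064302, minus strand): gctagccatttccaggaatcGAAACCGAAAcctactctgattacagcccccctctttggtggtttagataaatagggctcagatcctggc
Irgm1 (GRCm38.p6, chr11:48871421-48871510, minus strand): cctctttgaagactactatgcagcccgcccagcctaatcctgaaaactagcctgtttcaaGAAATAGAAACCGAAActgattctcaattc
Igtp (GRCm38.p6, chr11:58199466-58199555, plus strand): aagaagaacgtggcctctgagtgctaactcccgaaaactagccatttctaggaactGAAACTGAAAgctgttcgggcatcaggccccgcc
Irgm2 (GRCm38.p6, chr11:58214887-58214976, plus strand): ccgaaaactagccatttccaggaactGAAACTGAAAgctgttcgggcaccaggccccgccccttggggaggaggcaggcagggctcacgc
Gbp3 (GRCm38.p6, chr3:142559954-142560043, plus strand): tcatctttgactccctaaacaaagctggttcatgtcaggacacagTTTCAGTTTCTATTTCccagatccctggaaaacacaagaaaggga
B2m (GRCm38.p6, chr2:122147537-122147626, plus strand): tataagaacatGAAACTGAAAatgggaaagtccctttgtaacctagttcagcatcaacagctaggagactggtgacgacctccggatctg
Bst2 (GRCm38.p6, chr8:71537533-71537622, minus strand): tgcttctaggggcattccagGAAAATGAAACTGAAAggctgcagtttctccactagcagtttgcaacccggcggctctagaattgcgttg

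The Igtp and Irgm2 windows share an unbroken run of 29 bases that holds the match, and 58 of 60 bases are identical when they are laid side by side without a gap. Tgtp2 and Irgm2 share a run of 17 bases. In Gbp3 the capitals read as the reverse complement of the element. Tgtp2 itself was low, at 11.5, 15.3, 3.59 and 1.49 CPM in geriatric libraries against 0.355, 0.517, 0 and 0 CPM, and its near-identical copies make the count uncertain. Gbp3 was at 58, 47.5, 43.2 and 28.2 CPM against 9.22, 9.71, 2.98 and 12.8 CPM (log2 difference 2.35 ± 0.68, adjusted p = 0.0324), with all geriatric libraries above the young ones.

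In MHC class I presentation, 6 of 21 genes tested were higher and 1 lower. B2m, the light chain shared by all class I molecules, was at 10310, 4737, 2963 and 4013 CPM in geriatric and 1116, 1329, 1052 and 1310 CPM in young libraries. The lowest geriatric library was well above the highest young one, and the rise was 4.58-fold (adjusted p = 0.00301), called in all 8 fits with 1 library left out. Psmb8, a subunit of the immunoproteasome that cuts peptides for class I, was at 139, 78.9, 45.1 and 37.7 CPM against 15.8, 24.9, 21.2 and 11.9 CPM (4.07-fold, adjusted p = 0.00517). The peptide transporter subunit Tap1 (log2 difference 2.81, adjusted p = 0.0355) and Psmb9 (2.67, adjusted p = 0.0261) also rose. The classical heavy chain H2-K1 was at 874, 642, 1764 and 389 CPM against 635, 641, 608 and 625 CPM, and H2-D1 at 631, 599, 1219 and 286 CPM against 462, 359.9, 429 and 442 CPM. Both were highest in replicate 3 and lowest in replicate 4, and neither was called (adjusted p = 0.333 and 0.193). The non-classical H2-T23 rose 3.53-fold (adjusted p = 0.00802) and H2-T24 2.68-fold (adjusted p = 0.0229). H2-M3 and H2-T10 had log2 differences of 1.70 and 1.40 with no overlap and were not called (adjusted p = 0.0871 and 0.128), nor was H2-Q4, which overlapped (2.08, adjusted p = 0.0947). Pdia3, a chaperone of class I folding, fell 1.81-fold (adjusted p = 0.0481). The calls of H2-T24 and Pdia3 were lost in 6 and 7 of the 8 fits with 1 library left out. With replicates 3 and 4 alone the adjusted p of Pdia3 was 0.254. Class I genes are near-identical in long stretches, so counts of single heavy chains are uncertain. The count of 6 higher became 3 without geriatric replicate 1 or young replicates 1, 3 or 4. Of 3 class II genes tested none was called.

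Of 21 chemokine and complement genes tested, 4 were higher, beside 7.92% over all genes, and none was lower. Their median log2 difference was 1.72. Ccl11, or eotaxin, which draws eosinophils, was at 5457, 536, 43.0 and 158 CPM in geriatric and 7.66, 113, 12.5 and 21.3 CPM in young libraries. Replicate 1 alone held most of the group's level, replicate 3 fell below the young maximum, and the call (log2 difference 5.32 ± 1.43, adjusted p = 0.023) was lost without replicate 1 (0.154). Ccl19 was at 807, 851, 102 and 186 CPM against 67.8, 104, 96.4 and 70.2 CPM (5.75-fold, adjusted p = 0.009) and was called in all 8 fits with 1 library left out. Geriatric replicate 3 overlapped young replicate 2, and with replicates 3 and 4 alone the log2 difference was 0.74 (adjusted p = 0.12). The interferon-induced Cxcl10, which attracts T cells, was at 182, 164, 27.2 and 48.8 CPM against 11.8, 11.8, 3.17 and 6.38 CPM (12.7-fold, adjusted p = 0.0251). Its geriatric values did not overlap the young ones, but the call was lost in 6 of those fits. Chemokine and complement genes called higher numbered 1, 2, 7 and 6 without geriatric replicates 1 to 4 and 1, 2, 1 and 1 without young replicates 1 to 4. The stromal matrix gene Dcn was at 1320, 312, 236 and 108 CPM in the same geriatric libraries and at 43, 255, 266 and 2.21 CPM in the young ones. The fibro-adipogenic marker Pdgfra was at 4.38 CPM in geriatric replicate 1 and at most 0.345 CPM in the other geriatric libraries. The part of stromal RNA in the values of replicate 1 was not tested.

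**Figure D2:**
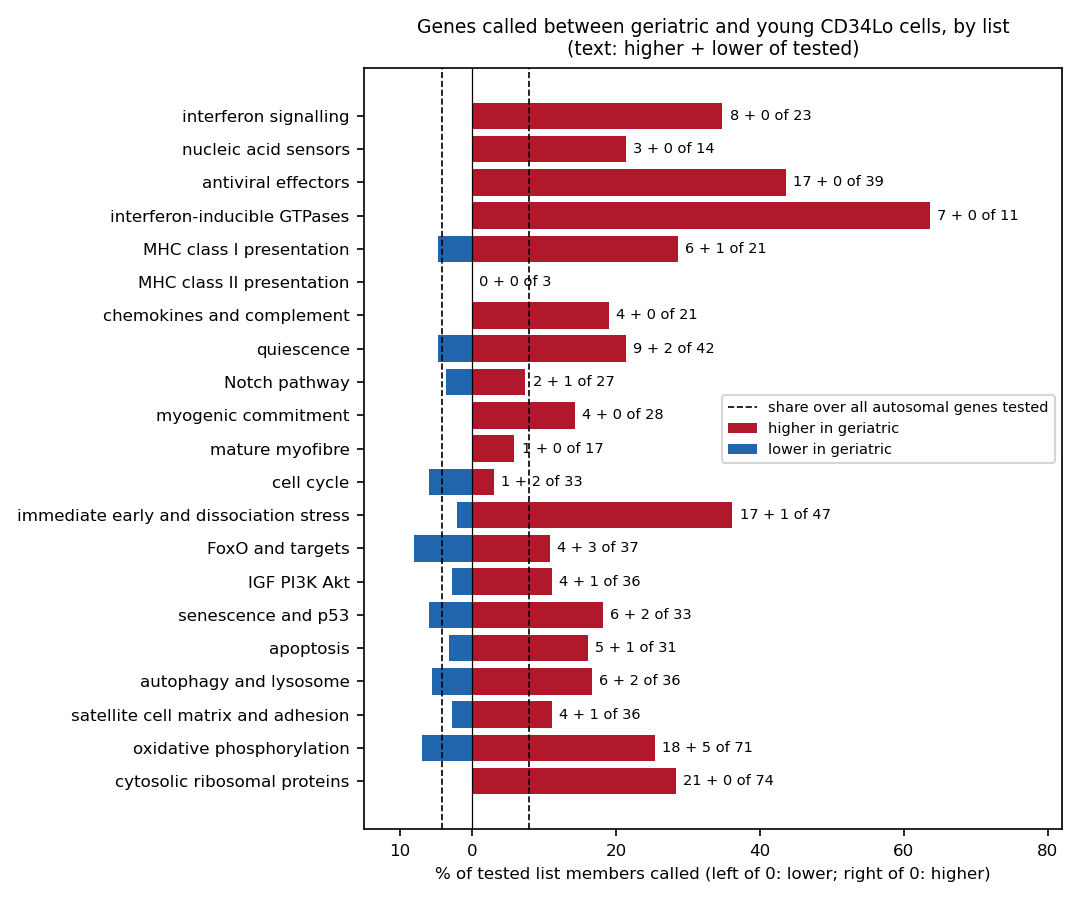
Percent of tested genes of each list that were called higher or lower in geriatric CD34Lo cells, with dashed lines at the shares over all autosomal genes (7.92% higher, 4.22% lower). The interferon-inducible GTPases (7 of 11) and antiviral effectors (17 of 39) lie far to the right of the line, and the largest share of lower calls is that of FoxO and targets (3 of 37).

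The lowest adjusted p of all belonged to Emp1, a membrane protein of the tetraspan family. It was at 1733, 1165, 639.7 and 1237 CPM in geriatric and at 144, 164, 146 and 153 CPM in young libraries. All geriatric libraries were well clear of the narrow young range, the rise was 7.85-fold (log2 difference 2.97 ± 0.29, adjusted p = 8.23e-05), and the highest adjusted p with 1 library left out was 0.00141. The young CD34Lo libraries of a separate experiment had a mean of Emp1 above that of these geriatric libraries, as given under Other observations. Emp1 was chosen for description after its values were seen, as were Fas and the metallothioneins. Stard13, Fxyd1, Arid5b and Crip1 came next, with log2 differences of 2.73, 2.78, 2.35 and 2.28 (adjusted p = 0.000269 for Stard13 and 0.000782 for the other genes).

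Genes of stress and cell death signalling were also among the large rises. Mt1, a metallothionein that binds zinc and copper, was at 34370, 14750, 2798 and 11150 CPM in geriatric and at 1263, 1673, 1663 and 2201 CPM in young libraries (9.28-fold, adjusted p = 0.0038). With Mt2 (8.28-fold, adjusted p = 0.00373) it took up 4.41%, 2.2%, 0.52% and 1.52% of all counts in geriatric replicates 1 to 4, against 0.23% to 0.39% in young libraries. The death receptor Fas was at 714, 444, 122 and 344 CPM against 19.1, 36.8, 18.8 and 53 CPM (12.7-fold, adjusted p = 0.00225). Casp4, the inflammatory caspase that senses bacterial lipopolysaccharide, was at 667, 364, 102 and 90.7 CPM against 18.3, 22.4, 12.3 and 40.9 CPM (13-fold, adjusted p = 0.0026). In all of these genes replicate 1 was the highest library, and none of the geriatric values reached down to the young ones. Mt1, Mt2, Fas and Casp4 stayed called in all 8 fits that left out 1 library and with replicates 3 and 4 alone.

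Of 31 apoptosis genes tested, 5 were higher and 1 lower, beside 7.92% and 4.22% over all genes. Besides Fas and Casp4 the kinase Ripk1, which passes on death receptor signals, rose 2.70-fold (adjusted p = 0.0224) and the survival factor Mcl1 1.93-fold (adjusted p = 0.0257). The pore-forming Bax moved the other way, at 29.0, 31.5, 75.1 and 74.6 CPM in geriatric against 129, 139.6, 153 and 124 CPM in young libraries (2.60-fold lower, adjusted p = 0.0325). Bid, which activates Bax, was at 0, 0, 13.6 and 11.3 CPM against 55.5, 50.8, 54.0 and 56.2 CPM. The groups were far apart, yet the fit did not call it (adjusted p = 0.0551) over all 4 libraries. It passed with replicates 1 and 2 alone (3.96e-06) and with replicates 3 and 4 alone (0.00915). The calls of Ripk1, Mcl1 and Bax were lost in 5, 6 and 6 of the 8 fits with 1 library left out. The 5 higher calls of the list became 3 without geriatric replicates 1 or 2 or young replicates 1 or 2, and 2 without young replicate 3.

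Immediate early genes and heat shock genes, which respond within minutes to tissue dissociation and other stress, were higher in 17 and lower in 1 of 47 genes tested (median log2 difference 1.31). The shares over all genes were 7.92% and 4.22%. Fosb, a partner of Jun in the AP-1 factor, was at 791, 757, 191 and 99.9 CPM in geriatric against 34, 21.6, 34 and 51.0 CPM in young libraries (13.1-fold, adjusted p = 0.00389). Klf4 was at 603, 430, 192 and 157 CPM against 40.4, 52.1, 54.9 and 72.2 CPM (log2 difference 2.65, adjusted p = 0.0026). Atf3, a stress-induced repressor, was at 224, 256, 75.5 and 40.6 CPM against 22.3, 19.4, 29.2 and 38.4 CPM (log2 difference 2.45, adjusted p = 0.0115). The geriatric values did not overlap the young ones in any of these genes, and replicates 1 and 2 were the highest. The classical members were not called. Fos was at 1417, 875, 1256 and 187 CPM against 288, 252, 452.9 and 429 CPM (adjusted p = 0.057), and Egr1 and Jun had adjusted p of 0.311 and 0.144. Ier2 fell 2.09-fold (adjusted p = 0.00875), with no overlap. The chaperone gene Hspb1 was at 609, 568, 929 and 3712 CPM against 212, 433, 167 and 419.6 CPM (4.72-fold, adjusted p = 0.0318), which without geriatric replicate 4 was not called (0.159). The count of 17 was 11 without geriatric replicate 1, 9 and 10 without young replicates 1 and 3, 31 with replicates 1 and 2 alone and 9 with replicates 3 and 4 alone. These genes also respond to handling, whose time per library is not in the labels, and its part was not tested.

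Among 42 quiescence-associated genes, 9 were higher, 2 lower and 31 not called, beside 7.92% higher and 4.22% lower over all genes. Cd34 itself rose within the gate of low surface CD34. It was at 126, 221, 125 and 53.6 CPM in geriatric and at 36.2, 33.4, 34.3 and 28.7 CPM in young CD34Lo libraries (3.96-fold, adjusted p = 0.00489). All geriatric libraries stood above all young ones. Young CD34Hi libraries held 38.7, 63.3, 69.1 and 70.6 CPM, so that 3 of the 4 geriatric CD34Lo libraries had more Cd34 RNA than any young CD34Hi library. Geriatric CD34Hi libraries held 197.5, 365, 155 and 134 CPM, which overlapped the geriatric CD34Lo libraries.

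Notch3, a receptor that keeps satellite cells from cycling, was at 67.3, 65.2, 37.2 and 51.6 CPM against 8.79, 7.24, 14.5 and 9.71 CPM (5.49-fold, adjusted p = 0.00142). The 4 geriatric libraries were clear of the young ones, and the call held in every fit that left out 1 library. Fgfr4, a receptor of fibroblast growth factors, was at 98.0, 97.6, 147 and 22.1 CPM against 19.7, 12.5, 12.6 and 19.8 CPM (5.65-fold, adjusted p = 0.00659). For Notch3 and Fgfr4, young CD34Lo libraries of a separate experiment had means above those of these geriatric libraries, as given under Other observations. Megf10, which acts with Notch in satellite cells, rose 2.99-fold (adjusted p = 0.00711), Tgfbr3, or betaglycan, 3.45-fold (adjusted p = 0.00763) and Lrig1 by a log2 difference of 1.39 (adjusted p = 0.00948). Both genes that fell are made by resting satellite cells. Cav1, the coat protein of caveolae, was at 623, 1008, 1636 and 912 CPM against 3425, 2333, 3208 and 2649 CPM (2.78-fold lower, adjusted p = 0.00569). Spry1, an inhibitor of growth factor signalling that is needed for the return to rest, was at 128, 142, 273 and 77.5 CPM against 349.9, 248, 361 and 429 CPM (2.24-fold lower, adjusted p = 0.0296). In Spry1 replicate 3 overlapped the young libraries, and 6 of 8 fits with 1 library left out lost the call. The calcitonin receptor gene Calcr, a marker of quiescence, was at 92.3, 135, 95.6 and 148 CPM against 82.5, 49.6, 97.1 and 102 CPM and was not called (adjusted p = 0.428). The count of 9 higher was 6 without geriatric replicate 1 or young replicates 2 or 4, 18 with replicates 1 and 2 alone and 5 with replicates 3 and 4 alone.

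**Figure D3:**
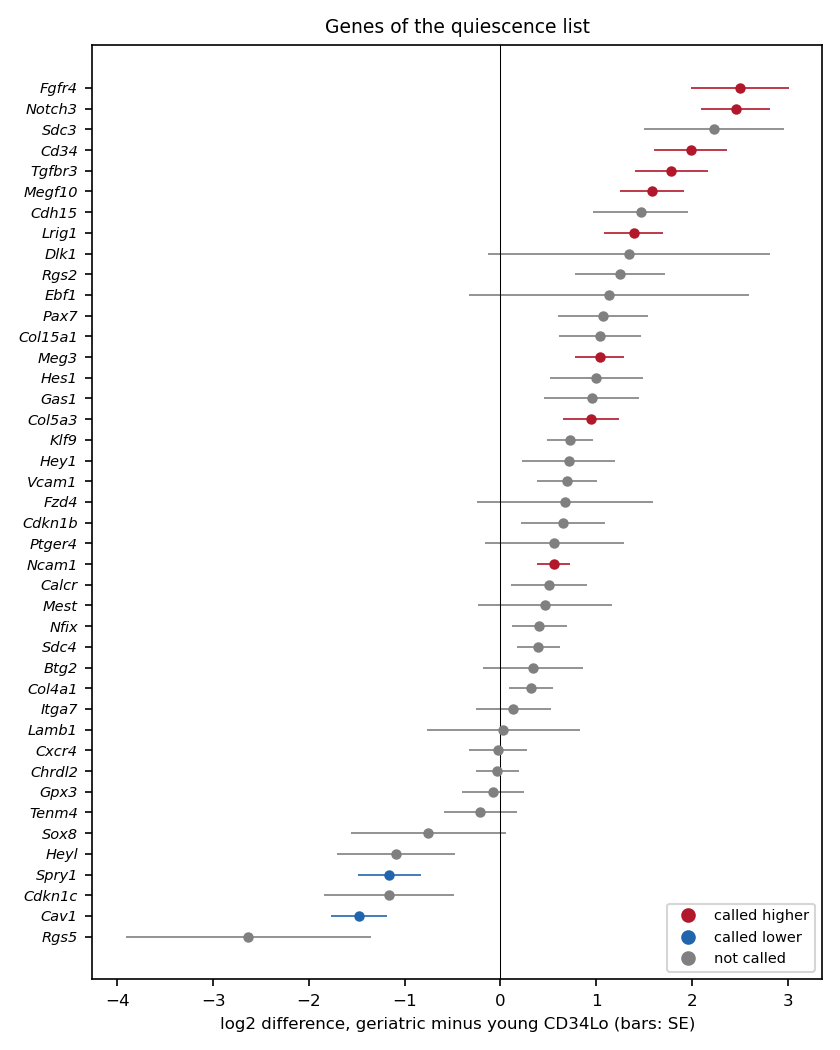
Log2 difference (geriatric minus young, CD34Lo) of 42 quiescence-associated genes, with bars of 1 SE, called genes in colour. Fgfr4, Notch3 and Cd34 lead the rises, and Cav1 and Spry1 are the only genes called lower.

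Of 27 genes of the wider Notch pathway, 2 were higher and 1 lower, which is near the shares of 7.92% and 4.22% over all genes and is no result about the pathway. Notch1 rose 2.49-fold (adjusted p = 0.0216) beside Notch3, and the call of Notch1 was lost in 5 of 8 fits with 1 library left out. Dtx4, a ubiquitin ligase of the Deltex family, fell from 194, 70, 173 and 101 CPM in young to 34.4, 30.2, 57.4 and 55.1 CPM in geriatric libraries (3.04-fold, adjusted p = 0.0128). The Notch targets Hes1, Hey1 and Heyl were not called (adjusted p = 0.184, 0.354 and 0.259), and their groups overlapped. The 2 higher calls became 1 without geriatric replicates 1 or 2 or young replicates 2, 3 or 4, and 4 without geriatric replicate 3.

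Of 28 genes of myogenic commitment, 4 were higher and none lower, beside 7.92% and 4.22% over all genes. Igfbp5, a secreted binder of insulin-like growth factors, was at 439, 413, 164 and 157 CPM against 85.7, 38.5, 62.6 and 32.1 CPM (5.36-fold, adjusted p = 0.00733). Myf6 was low in both ages and rose 4.37-fold (adjusted p = 0.0497), which was lost in 6 of 8 fits with 1 library left out. The determination factor Myod1 was at 295, 281, 892 and 535 CPM against 1082, 1023, 809 and 1088 CPM and was not called (adjusted p = 0.107). Replicates 1, 2 and 4 were below all young libraries and replicate 3 overlapped them. With replicates 1 and 2 alone the adjusted p was 0.000731. Myf5 (adjusted p = 0.146) and Myog (adjusted p = 0.0985) were not called either. Myog was at 0.110, 52.4, 10.6 and 0.124 CPM against 47.3, 161, 41.3 and 198 CPM, so that only replicate 2 reached the young range. The 4 calls became 2 without geriatric replicates 1 or 2 or young replicates 1, 2 or 3. Of 17 myofibre genes 1 was higher and none lower, which is near the shares over all genes and no result about the list. It was the tropomyosin Tpm3 (1.52-fold, adjusted p = 0.0477), whose call was lost in 6 of 8 fits with 1 library left out.

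Of 33 cell cycle genes, 1 was higher and 2 were lower, beside 7.92% and 4.22% over all genes. Counts this small are no result about the list as a whole. Pcna, the sliding clamp of DNA replication, rose 1.94-fold (adjusted p = 0.0296), while Mcm7 (2.84-fold lower, adjusted p = 0.0463) and Mcm6 (2.94-fold lower, adjusted p = 0.0484) of the replicative helicase fell. Pcna, Mcm7 and Mcm6 lost their calls in 5, 7 and 7 of 8 fits with 1 library left out. Cdkn2a, which encodes the senescence inhibitor p16, had 0, 0, 1 and 0 raw counts in geriatric and 0, 2, 0 and 0 in young CD34Lo libraries. It was too low to be tested, and no difference was detectable at this depth.

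In the senescence and p53 list, 6 of 33 genes tested were higher and 2 lower, beside the same shares of 7.92% and 4.22%. The cell cycle inhibitor Cdkn1a, or p21, was at 374, 518, 291 and 270.3 CPM against 146, 122, 156 and 169.9 CPM (2.45-fold, adjusted p = 0.00517), with no overlap and a call in all 8 fits with 1 library left out. Cdkn2c, which encodes p18, was at 99.3, 76.8, 14.6 and 22.2 CPM against 10.4, 9.02, 7.73 and 10.9 CPM (log2 difference 2.48, adjusted p = 0.0073). Trp53, the gene of p53, was lower, at 57.5, 91.7, 266 and 109.8 CPM against 359.9, 365, 331 and 369.5 CPM (2.71-fold, adjusted p = 0.0198). Of the secreted members, Timp2 rose 2.33-fold (adjusted p = 0.00416). Il6 was at 432, 363, 16.1 and 7.82 CPM against 4.61, 26.1, 5.32 and 6.90 CPM, high in 2 geriatric libraries alone (adjusted p = 0.0491, and 0.956 with replicates 3 and 4 alone). Higher calls in the list ranged from 4 to 8 with 1 library left out. Tnf had 15, 63, 20 and 19 raw counts in young replicates 1 to 4 and 0 in every geriatric library (adjusted p = 0.0152).

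Of 37 genes of FoxO and its targets, 4 were higher and 3 lower, beside 7.92% and 4.22% over all genes. The deacetylase Sirt1 rose 2.89-fold (adjusted p = 0.02) and the autophagy kinase Ulk1 2.34-fold (adjusted p = 0.009). The call of Sirt1 was lost in 5 of 8 fits with 1 library left out. Txnip, a glucose-responsive arrestin, was at 49.5, 71, 478 and 114 CPM against 864, 538, 1072 and 842 CPM (4.65-fold lower, adjusted p = 0.0356). Replicate 3 was the nearest to the young libraries without reaching them, and the call was lost in 7 of 8 fits with 1 library left out (0.103 without geriatric replicate 2). Pdk4, which restrains pyruvate oxidation, fell 2.04-fold (adjusted p = 0.0139) and lost its call without young replicate 4 (0.0597). Foxo1 was not called (adjusted p = 0.105) and Foxo3 was near 0 in several libraries of both ages. Of 36 genes of the IGF, PI3K and Akt pathway, 4 were higher and 1 lower. These counts are near the shares of 7.92% and 4.22% over all genes and are no result about the pathway. Igfbp4 rose 3.94-fold (adjusted p = 0.0134) and Igf1r 2.1-fold (adjusted p = 0.0317), while Deptor, an inhibitor of mTOR, fell 2.55-fold (adjusted p = 0.0187). The calls of Igfbp4, Igf1r and Deptor were lost in 1, 6 and 3 of 8 fits with 1 library left out. The 3 lower calls of FoxO and its targets became 2, 2, 4 and 1 without geriatric replicates 1 to 4 and 2, 1, 1 and 1 without young replicates 1 to 4. FoxO genes called higher numbered 2, 2, 9 and 5 without geriatric replicates 1 to 4 and 2, 4, 2 and 3 without young replicates 1 to 4, and those of the IGF pathway 1, 2, 8 and 6 and then 2 in each.

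Of 36 autophagy and lysosome genes, 6 were higher and 2 lower, beside 7.92% and 4.22% over all genes. Gabarap, which coats the growing autophagosome, was at 1236, 1004, 359.8 and 815 CPM against 288, 277, 272 and 206 CPM (3.27-fold, adjusted p = 0.0026). Npc2, which moves cholesterol out of the lysosome, rose 2.37-fold (adjusted p = 0.0185) and lost its call in 4 of 8 fits with 1 library left out. Atg5 fell 1.83-fold (adjusted p = 0.0466) and Lamp1 1.87-fold (adjusted p = 0.0398), and each was lost in 7 of 8 fits with 1 library left out. In matrix and adhesion, 4 of 36 genes were higher and 1 lower, which is near the same shares over all genes and no result about the list. The rises were led by the laminin receptor Dag1 at 298, 326, 462 and 285 CPM against 146, 98.4, 103 and 172 CPM (2.64-fold, adjusted p = 0.00586). Itgb1, the β1 integrin chain through which satellite cells hold the niche, was the 1 gene lower, at 359, 421, 488 and 476 CPM against 693, 660.3, 592 and 624 CPM (1.47-fold, adjusted p = 0.0365). Its geriatric and young values did not overlap, and the call was lost in 6 of 8 such fits. Higher calls of the autophagy list ranged from 4 to 8 with 1 library left out. Those of matrix and adhesion were 1, 3, 3 and 5 without geriatric replicates 1 to 4 and 1, 1, 2 and 1 without young replicates 1 to 4.

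**Figure D4:**
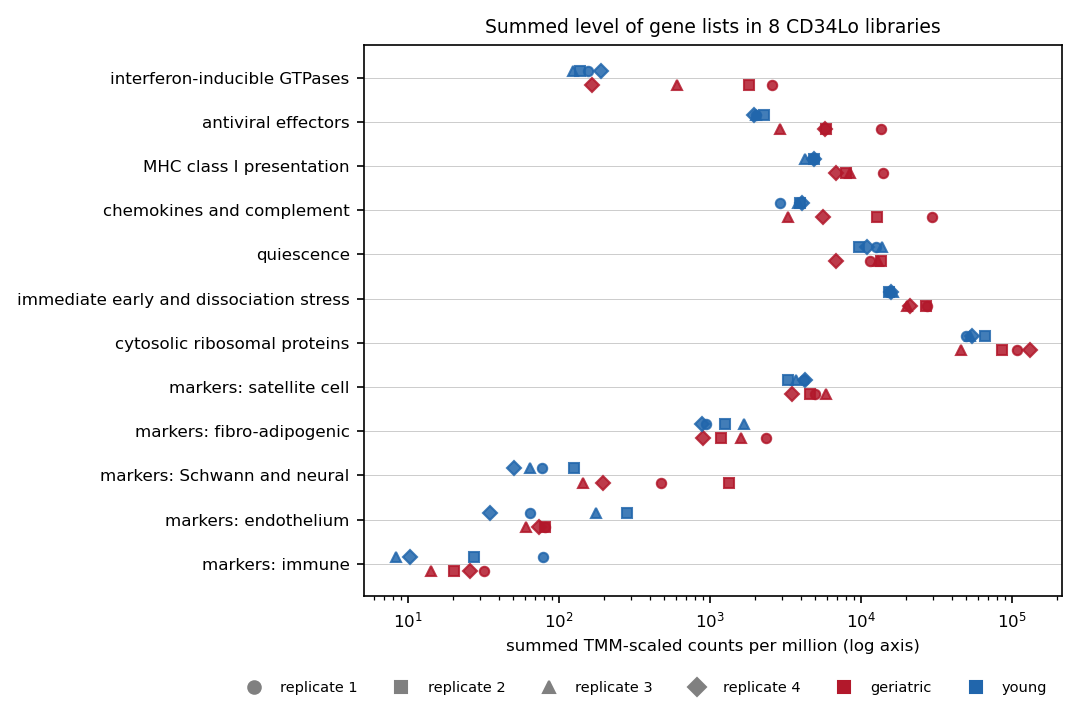
Summed CPM of 12 gene lists in each of the 8 CD34Lo libraries, on a log axis. The GTPase sum spans 165.4 to 2569 CPM among geriatric libraries, and the ribosomal sum of geriatric replicate 3 (46360 CPM) lies below all young ones while the other 3 lie above.

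The 75 cytosolic ribosomal protein genes summed to 108200, 85840, 46360 and 132800 CPM in geriatric replicates 1 to 4 and to 49720, 66480, 52660 and 54290 CPM in young replicates 1 to 4. Replicate 3 was thus below every young library. Of 74 tested, 21 were higher and none lower, beside 7.92% and 4.22% over all genes. Rps19 was at 3846, 2605, 1111 and 4676 CPM against 963, 1411, 1011 and 1095 CPM (2.73-fold, adjusted p = 0.012) and was called in all 8 fits with 1 library left out. With replicates 3 and 4 alone Rps19 was not called (adjusted p = 0.0544). The count rested on single libraries. It was 2 without geriatric replicate 1, 12 without replicate 2, 57 without replicate 3 and 4 without replicate 4, and 2, 12, 2 and 3 without young replicates 1 to 4. With replicates 3 and 4 alone it was 0, and with only the 8 CD34Lo libraries in the fit it was 3.

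Oxidative phosphorylation, the chain of mitochondrial complexes that makes ATP, had 18 genes higher and 5 lower of 71 tested. The shares over all genes were 7.92% and 4.22%. The genes that rose included Uqcrh of complex III, at 782, 578, 253 and 995 CPM against 264, 344, 250.5 and 277 CPM (2.30-fold, adjusted p = 0.0183) and Cox6a1 (1.98-fold, adjusted p = 0.0202). The genes that fell included Atp5b, the catalytic subunit of the ATP synthase, at 662, 1249, 2006 and 588 CPM against 2472, 2476, 2411 and 2500 CPM (2.19-fold lower, adjusted p = 0.0286). Cyc1 and Uqcrc2 of complex III fell 1.98-fold and 1.73-fold (adjusted p = 0.0486 and 0.0325). The transcripts of the 18 higher genes had a median length of 718 bases and those of the 5 lower genes 1916, beside 780 for the 21 ribosomal genes called higher and 3117 over all genes with a length. Genes not called had medians of 936 bases in oxidative phosphorylation and 954 among the ribosomal genes. Over all tested genes, 11.65% in the first of 4 equal bins by transcript length, the shortest, were higher and 3.64% lower, against 5.41% and 6.4% in the next. The bin after that had 5.73% higher and 3.78% lower, and the longest 8.98% and 3.08%. The part of transcript length in these calls was not tested. The count of 18 was 5, 10, 47 and 7 without geriatric replicates 1 to 4 and 5, 12, 5 and 5 without young replicates 1 to 4. The 5 lower calls stayed 5 in number without geriatric replicate 3, became 1 without replicate 2 and 0 without any other library.

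Outside the lists, the rule for large changes, which takes only called genes whose groups do not overlap, named several genes. Anxa3, a calcium-dependent membrane binder, was at 712, 139, 83.9 and 106 CPM against 10.6, 13.7, 9.31 and 6.38 CPM (25.9-fold, adjusted p = 0.000869) and was called in every fit with 1 library left out. Tshr, the thyrotropin receptor, was at 33.3, 26.8, 20.4 and 8.31 CPM against 0.0709, 0.0575, 1.58 and 0 CPM (log2 difference 5.63 ± 1.38, adjusted p = 0.0152). Smim3, a small membrane protein, rose 14.9-fold (adjusted p = 0.00567). Gm4841 and F830016B08Rik, GTPase-like genes on the chromosome of Iigp1, rose 14.4-fold and 13.6-fold (adjusted p = 0.00596 and 0.00567). With geriatric replicates 3 and 4 alone their adjusted p was 0.143 and 0.0187. F830016B08Rik was even across geriatric libraries, at 53.3, 40.5, 32.8 and 31.9 CPM against 1.92, 1.55, 5.01 and 3.15 CPM.

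The largest falls named by the same rule, and so without overlap between the groups, were in 12 genes. Aatf, a nucleolar factor that restrains apoptosis, was at 4.05, 12, 54.6 and 21.5 CPM against 131, 145, 125 and 127 CPM (5.71-fold lower, adjusted p = 0.00697). Shmt1, which feeds one-carbon units to nucleotide synthesis, was at 9.32, 17.7, 76.8 and 23.3 CPM against 177, 184, 185 and 159 CPM (5.52-fold lower, adjusted p = 0.0134). The matricellular gene Cyr61, a target of YAP, was at 198, 96.4, 331 and 40.4 CPM against 1003, 569, 1069 and 1064 CPM (5.57-fold lower, adjusted p = 0.00577). In all of these replicate 3 kept the highest geriatric level, and the calls held in every fit with 1 library left out. With replicates 3 and 4 alone the adjusted p was 0.00926 for Aatf, 0.0365 for Shmt1 and 0.0544 for Cyr61. Xrcc6, which encodes Ku70 of DNA end joining, was at 0.877, 19.1, 15.1 and 1.99 CPM against 46.7, 49.8, 55.7 and 49.4 CPM (5.41-fold lower, adjusted p = 0.0239). The proton carrier gene Ucp2 fell 5.39-fold (adjusted p = 0.033) and Gemin4, of the complex that assembles splicing particles, 8.03-fold (adjusted p = 0.0302). Pus7l, Zscan22, Tmem129, Fam118b, Dcun1d2 and Gm3414 fell between 5.52-fold and 7.59-fold. Of the 8 fits with 1 library left out, 7 lost the calls of Gemin4, Fam118b and Dcun1d2, 6 those of Ucp2 and Zscan22, 5 that of Pus7l, 3 that of Xrcc6 and 1 that of Tmem129, while Gm3414 was called in all 8.

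Markers of other cells moved in part. Summed Schwann and neural markers were 145 to 1330 CPM in geriatric and 50.7 to 126 CPM in young libraries (exact permutation test, two-sided, p = 0.0286, the smallest that 4 against 4 libraries allow, adjusted over 7 marker lists 0.2). Pmp22, a myelin protein also made elsewhere, was at 325, 917, 116 and 147 CPM against 51.3, 81.4, 53.4 and 39.6 CPM (6.66-fold, adjusted p = 0.00904). The sodium channel Scn7a was at 145, 35.8, 14.9 and 10.9 CPM against 0.0709, 2.93, 1.27 and 2.72 CPM (29.3-fold, adjusted p = 0.00733). Sox10, the defining factor of Schwann cells, was at 0 in geriatric replicates 1, 3 and 4 and at 6.26 CPM in replicate 2. Replicate 2 also had the highest Pmp22, Mbp (107 CPM), S100b (11.9 CPM) and Schwann sum (1333 CPM), and replicate 1 the highest Scn7a. The part of Schwann cell RNA in these values was not tested. Of 11 pericyte markers, Notch3 and Tagln (4.84-fold, adjusted p = 0.00301) were higher, while Pdgfrb was at 1.53, 1.51, 4.00 and 0 CPM against 0.142, 0.977, 5.70 and 0.596 CPM. The pericyte sums overlapped (590 to 1460 against 834 to 1190 CPM, p = 0.971 by the same exact test). None of 16 fibro-adipogenic and 9 endothelial markers tested was called. The endothelial sum was 281.9 and 176.4 CPM in young replicates 2 and 3, the libraries with the highest Ly6a, and 34.9 to 81.3 CPM in the other CD34Lo libraries, and its part was not tested. Of 5 immune markers tested 1 was called, S100a9 of neutrophils, with 62, 0, 7 and 19 raw counts in geriatric and 0 in all young libraries (adjusted p = 0.0343).

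The same ages were compared in the CD34Hi gate of the same experiment, with 1548 autosomal genes higher (13.2%) and 1207 lower (10.3%) in geriatric cells. No gene passed the edgeR test of the difference between the age effects of the gates, with a lowest adjusted p of 0.144. In that test 444 of 11730 genes had an unadjusted p under 0.05, fewer than the share of 0.05 that chance alone gives. DESeq2 gave 10 genes past the adjusted threshold, and the fit with low-Xist geriatric libraries alone gave 41. The labels number CD34Hi and CD34Lo libraries alternately without saying that they came from the same animals, and the test treated all 16 libraries as independent. Geriatric replicates 1 to 4 had GTPase sums of 2869, 1893, 554.1 and 200.1 CPM in CD34Hi, beside 2569, 1815, 606 and 165.4 CPM in CD34Lo cells. Xist was at 0.312, 0.647, 440 and 418 CPM in the same CD34Hi libraries, beside 0, 13.5, 377 and 56 CPM in CD34Lo. Both thus ran in a like order in the gates, and a pairing of the gates was not tested. Among the interferon-inducible GTPases 8 were higher in CD34Hi and 7 in CD34Lo cells, and among antiviral effectors 27 and 17. Rtp4 had a log2 difference of 6.24 ± 1.20 (SE) in CD34Hi and 5.67 ± 1.16 in CD34Lo cells, Emp1 2.97 ± 0.29 in both, and Notch3 2.61 ± 0.36 and 2.46 ± 0.36. The difference between gates was -0.57 ± 1.39 for Rtp4, 0.01 ± 0.38 for Emp1 and -0.15 ± 0.48 for Notch3. Ifit1 had log2 differences of 9.87 ± 1.85 in CD34Hi and 3.84 ± 1.26 in CD34Lo cells (difference -6.04 ± 2.13, adjusted p = 0.999). Ribosomal genes were higher in 63 and oxidative phosphorylation genes in 48 members in CD34Hi, against 21 and 18 in CD34Lo cells.

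**Figure D5:**
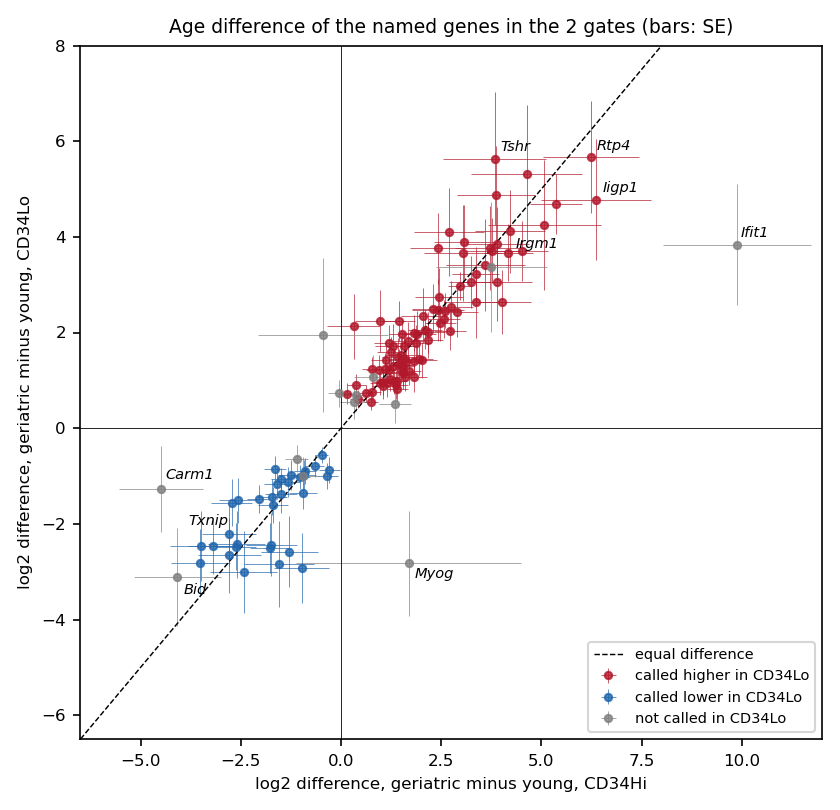
Log2 difference between geriatric and young cells of the named genes in CD34Hi (horizontal) and CD34Lo cells (vertical), with bars of 1 SE and a dashed line of equal difference. Most points lie near the line, while Ifit1 (9.87 in CD34Hi, 3.84 in CD34Lo), Carm1 and Myog, none of them called in CD34Lo, lie away from it. S100a9 and Tnf, with a group at 0, are not drawn.

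A separate experiment of the series holds adult and young CD34Lo libraries, 4 of each, counted and scaled in their own table. There 155 genes were higher (1.25%) and 43 lower (0.346%) of 12412 tested in adult against young cells. Of the interferon lists, 0 of 24 signalling genes, 1 of 17 nucleic acid sensors and 1 of 14 GTPases were called higher. So were 3 of 44 antiviral effectors and 1 of 21 class I genes, beside 1.25% of all genes tested. The median log2 differences of these lists were 0.144, 0.621, 0.611, 0.409 and 0.172, beside -0.042 over all genes. Chemokines and complement held 8 calls of 23. Cd34 (log2 difference 0.92, adjusted p = 0.00606), Anxa3 (1.51, adjusted p = 0.0257), Tshr (1.58, adjusted p = 0.0255) and Igfbp4 (1.26, adjusted p = 0.0363) were called higher in adult cells too. Hspb1, which rose in geriatric cells, was lower in adult than in young cells (-2.30, adjusted p = 0.0428). Whether the effects of the later ages differ was not tested, since the tables were made separately.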

How the data were processed

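RNA was sequenced from 8 CD34Lo libraries, 4 geriatric and 4 young, of an experiment of 16. The deposited values are raw read counts per gene symbol, with no scaling by the authors (checked: whole numbers with totals that differ). Libraries were made with a low-input SMART-Seq and Nextera XT kit, which keeps no strand, per the labels' protocols. The submitters' processing notes name mm10, HTSeq, Partek 7.0, TopHat2 2.1.1, bcl2fastq 2.17.1 and Trim Galore, without their roles. How HTSeq was set is not stated there.

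Counts of all 16 libraries (4 groups) were fitted in R 4.3.3 with edgeR 4.0.16: filterByExpr (minimum count 10, minimum total 15), TMM scaling and the quasi-likelihood F-test, with Benjamini-Hochberg adjustment over 12163 genes and a threshold of 0.05. Then 433 genes of X and Y were left out. CPM are counts over the TMM-scaled library total in units of 1 M. SE was the log2 difference over the square root of F. The test was tested on simulated data. Positions are from GENCODE on mm10, promoters from RefSeq (GRCm38.p6). No pair of libraries agreed within sampling noise (chi-square over degrees of freedom at least 20.08). Fewer counts give wider errors: genes near the minimum are measured poorly.

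Named genes were the 12 largest called rises and the 12 largest falls without overlap and with a mean of at least 8 CPM, up to 4 called genes per list and direction by mean CPM, and genes fixed by name. Other list members and Emp1, Fas, Mt1 and Mt2 were added after their values were seen. The members and lists were chosen with earlier results of these data known. Alternatives were DESeq2 1.42.0, limma 3.58.1 (voom with weights), other scalings, no filter, fewer libraries and each replicate left out. The fit with high-Xist libraries alone and the adult comparison were added after seeing the data.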

Additional observations from a re-analysis of the deposited data

Results flagged for a closer look

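Within the groups of 4 libraries, 20 of 282 sets of values (7.1%) held a library whose gap to the nearest other exceeded Dixon's critical share of the group's range, where chance gives about 1 in 20. In geriatric CD34Lo cells, replicate 1 stood apart for Bst2 (112.8 CPM, others 28.97 to 35.66), Ccl11 (5457 CPM, others 42.97 to 535.9) and Anxa3 (711.7 CPM, others 83.93 to 139). Replicate 3 stood apart for Sirt1 (52.41 CPM), Txnip (478.4 CPM), Gm3414 (6.0 CPM) and H2-T24 (14.9 CPM), each time toward the young level. Replicate 4 stood apart for Hspb1 (3712 CPM, others 568.5 to 928.6).

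In young CD34Lo cells, replicate 2 stood apart for Ccl11 (112.9 CPM), Cyr61 (569 CPM), Gm3414 (22.53 CPM), Rtp4 (6.034 CPM), Cox8a (318 CPM) and Il6 (26.15 CPM). Replicate 1 did so for Sirt1 (27.3 CPM) and H2-T23 (13.97 CPM), replicate 3 for Tshr (1.584 CPM) and Tgfbr3 (98.98 CPM), and replicate 4 for Pdk4 (441.2 CPM) and Chodl (370.6 CPM).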

How the results depend on the processing

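Over 11730 autosomal genes, 1424 were called (929 higher, 495 lower). DESeq2 called 2358 (1436 higher, 922 lower), voom with sample weights 2906 (1529, 1377), the 8 CD34Lo libraries alone 967 (604, 363), only the low-Xist geriatric libraries 4186 (1951, 2235) and only the high-Xist ones 712 (341, 371). No filter gave 1199, RLE scaling 1406, upper-quartile scaling 1429 and removal of X and Y before the fit 1439. Leaving out 1 library gave 655 to 2760 calls, 443 to 1475 higher and 200 to 1285 lower. The share of calls that were higher was 65.2%, and 52.6% with voom, 46.6% with low-Xist, 47.9% with high-Xist libraries and 53.4% without geriatric replicate 3. Voom moved the median log2 difference of all genes to -0.138. No call was opposite in any of these settings. The interferon lists held 41 higher calls, 62 with low-Xist and 13 with high-Xist libraries, and 20 to 50 with 1 library left out. The difference between gates gave 0 genes, 10 with DESeq2 and 41 with low-Xist libraries. Of 119 named genes that were called, all 119 had the same direction in every setting, 50 were called in all 8 fits that left out 1 library and 36 in every setting. Fewer libraries did not always give fewer calls, as the 4186 with low-Xist geriatric libraries show, and the causes of these changes were not tested. No paired analysis was possible because the geriatric and young libraries share no number in the labels, which count libraries through.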

Other observations

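The young CD34Lo libraries of the separate experiment with adult cells, fitted and scaled in its own table, did not repeat the young levels given above for several genes. Emp1 was at 1871 ± 708 CPM (SD, n = 4) in those young libraries, beside 152 ± 8.80 CPM in the young and 1193 ± 447 CPM in the geriatric libraries of the main experiment. Notch3 was at 92.5 ± 38.2 CPM there, beside 10.1 ± 3.13 and 55.3 ± 13.9 CPM. Fgfr4 was at 190.2 ± 79.2 CPM there, beside 16.1 ± 4.17 and 91.1 ± 51.5 CPM. Cd34 was at 88.8 ± 6.21 CPM there, beside 33.1 ± 3.18 and 131 ± 68.7 CPM. B2m was at 1295 ± 1038 CPM there, near the young mean of 1202 ± 139 CPM and below the geriatric mean of 5507 ± 3287 CPM. The mean of those young libraries was nearer, on the scale of log2(CPM + 0.5), to the geriatric than to the young mean of the main experiment for 477 of 920 genes called higher (51.8%), 165 of 490 called lower (33.7%) and 4716 of 9803 not called (48.1%). On that scale those young means lay above the young means of the main experiment by a median of 0.915 for genes called higher. The median was -0.474 for genes called lower, 0.285 for genes not called and 0.294 over all genes. Levels across separately made tables differ by experiment as well as by cells, and the part of each was not tested.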
